A study of Mus musculus with 24 samples.

Results

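Oligodendrocytes and their myelin were followed through 34 genes, chosen by name as markers of the lineage and matched to the arrays by gene symbol. They are 34 of the 19751 symbols on the arrays, and a gene is shown through its brightest probe, that with the highest mean log2 signal over the 24 arrays. All 34 had a probe, and 43 probes in all matched them. The genes were grouped by stage into 2 precursor genes, 3 genes of committed or newly formed oligodendrocytes, 24 genes of mature cells and myelin, and 5 genes expressed through several stages of the lineage.

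Oligodendrocytes arise from proliferating precursor cells that carry the receptor for platelet-derived growth factor. Precursors that commit to differentiation pass through a short premyelinating stage, then switch on the genes for myelin proteins and lipids and wrap axons in a compacted membrane sheath that speeds conduction. In the rodent hippocampus this happens largely after birth and continues into young adulthood, so that precursors, newly formed cells and myelinating cells are present together.

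The arrays measured hippocampal RNA of the offspring or grand-offspring of male mice that had eaten a control diet (CD) or a methyl donor diet (MD, 3MS ZM) for 6 weeks before mating. The methyl donor diet was supplemented with L-methionine, choline, betaine, folic acid, vitamin B12 and zinc. Each array was hybridized with a pool of RNA from 4 mice, and the sex of the mice in a pool is not given, while the study's methods say that sexes were balanced among the offspring. The comparisons ask whether the diet of a father (F1) or of a paternal grandfather (F2) is associated with different levels. The labels name the diet for each group, and the methods describe it as fed to the males before mating without giving the food of the F1 and F2 animals.

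The groups were CD F1 and MD F1, labelled congenic C57BL/6J x 129S6/SvEv hybrids whose fathers had eaten the named diet, and CD F2 and MD F2, labelled mixed hybrids of the same strains whose grandfathers had eaten it. All animals were labelled 4 weeks old, while the study's methods describe adults. There were 6 arrays in each group and 24 in all. The F2 labels also carry a code, lh or rh, on 3 arrays each in either diet group, and its meaning is not given. Each generation had 3 slides of its own, every slide held 2 CD and 2 MD arrays, and the generations were scanned on different days. Diet was therefore balanced over slides, while generation, slide and scan day cannot be told apart.

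Signals were processed intensities made by the authors' feature extraction software, background-subtracted on a linear scale. Here they were taken as log2 values and quantile-normalized within a generation. The median intensity of an array lay between 251 and 318 in CD F1, 167 and 262 in MD F1, 151 and 262 in CD F2, and 148 and 262 in MD F2. Of 43020 non-control spots, 32809 or more were well above background on 22 arrays. Precision is limited by having 6 arrays in a group.

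Some arrays stood apart. Spots well above background numbered 28000 on CD F2 replicate 6 and 27383 on MD F2 replicate 3. MD F1 replicate 6 correlated less with the other F1 arrays than they did among themselves, with a mean r of 0.983 over 16050 genes against 0.993 to 0.996 for the other 11. Its median intensity, 167, was the lowest of the F1 arrays. Values without these 3 arrays are therefore given beside many of the results, though not all.

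A further measure differed between arrays. The log2 signal of Xist was subtracted from the mean over Uty, Kdm5d, Eif2s3y and Ddx3y, which lie on the Y chromosome. The result lay between −2.32 and −1.93 on the CD F1 arrays. In MD F1 it was −2.19, −1.34, −1.74, −0.82, −1.98 and 0.11 on replicates 1 to 6. In F2 it was −7.63 on CD F2 replicate 3, −7.69 on CD F2 replicate 5 and −7.43 on MD F2 replicate 6, and 5.14 to 7.62 on the other 9 arrays. The F2 arrays thus fell into a low set, with Xist the stronger, and a high set, with the Y genes the stronger. The sets were split unequally between the diets. So the F2 pools were not alike in sex, although the methods say that sexes were balanced among the offspring. This measure, called the sex measure here, was also used as a further term in the fits, and its part in the results was not tested beyond that. In F1 it was higher on most MD arrays than on any CD array, and highest on MD F1 replicate 6. F1 values with the sex measure as a term therefore cannot fully separate it from diet or from that array.

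All 34 genes were well above background on all 24 arrays. Mbp, Mog and Mag mark myelin, Pdgfra and Cspg4 mark precursors, and Olig2 and Sox10 mark the whole lineage, so the defining markers of each stage were present in every pool. Of 8 genes of Schwann cells and peripheral myelin, 6 were above background in F1 and in F2. Signals of different probes are not compared with each other, since probes differ in how brightly they bind.

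In F1 the limma test called 0 of the 34 genes at a false discovery rate (FDR) under 0.1, where 13 of 39429 probes, 0.033%, were called overall. At an unadjusted p under 0.05, 5 of the 34 genes were lower in MD F1 and 0 were higher. Scaling to the 75th percentile in place of quantile normalization gave 2 lower, Mobp and Gjc3, and 2 higher, Gjb1 and Car2, so the one-sided count depended on the scaling. With quantile normalization, over the 17379 genes above background in both groups, 5.82% were lower and 8.49% were higher at that p. By sign alone 13 genes were higher and 21 lower, with a median log2 fold change (MD minus CD) of −0.08, against 9596 higher, 7783 lower and a median of 0.02 over all genes. The hippocampus was measured in bulk, so fewer cells of a stage and less RNA per cell cannot be told apart in any of these values.

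With MD F1 replicate 6 left out, the F1 median of the 34 genes was −0.01 and that of all genes was 0.01. Then 3 genes were lower and 1 higher at an unadjusted p under 0.05, against 7.15% lower and 8% higher over 17346 genes. In that fit limma called 1 of the 34 at an FDR under 0.1, Gjc3, where 152 of 39429 probes, 0.386%, were called overall. Without scaling between arrays 6 of the 34 were called, where 20.2% of all probes were and the median of all genes was −0.25. With the sex measure as a further term the median of the 34 was 0.01, 2 genes were lower and 1 higher, against 5.29% and 5.96% over all genes, and 0 were called. Within slides 4, 5 and 6 the median difference over the 34 genes was −0.12, −0.04 and −0.03, and MD F1 replicate 6 lay on slide 4.

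In F2 limma called 0 of the 34 genes at an FDR under 0.1, and 0% of 39423 probes overall. At an unadjusted p under 0.05, 2 of the 34 were lower in MD F2 and 0 higher, against 3.09% lower and 3.17% higher over 16769 genes. By sign 18 genes were higher and 16 lower, with a median of 0.00, the same as the 0.00 of all genes. With MD F2 replicate 3 and CD F2 replicate 6 left out the median was −0.01, and 1 gene was lower and 1 higher at that p, against 3.49% lower and 2.93% higher over 16739 genes. Without MD F2 replicate 6 the median was 0.06. With the sex measure as a term it was −0.04, with 14 genes higher and 20 lower. By sign 15 were higher and 19 lower without the 2 arrays that stood apart, so the majority by sign depended on the fit.

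The difference of the diet effects, F1 minus F2, was tested with limma on all 24 arrays normalized together. It called 0 of the 34 genes at an FDR under 0.1, where 5 probes, 0.0127%, were called overall. At an unadjusted p under 0.05 the difference was negative for 2 genes, Gjc3 and Cspg4, and positive for 0, against 3.84% negative and 4.89% positive over 16619 genes. Its median over the 34 was −0.06, and 26 of them had a negative difference, against a median of 0.01 over all genes, where 7960 of 16619 were negative. Leaving out MD F1 replicate 6 brought the median to −0.01 (−0.00 over all genes), with Gjc3 alone at that p. Car2 had a positive difference at that p with the sex measure as a term, and in 4 of 24 fits without 1 array. The one-sided count thus depended on the fit.

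**Figure D1:**
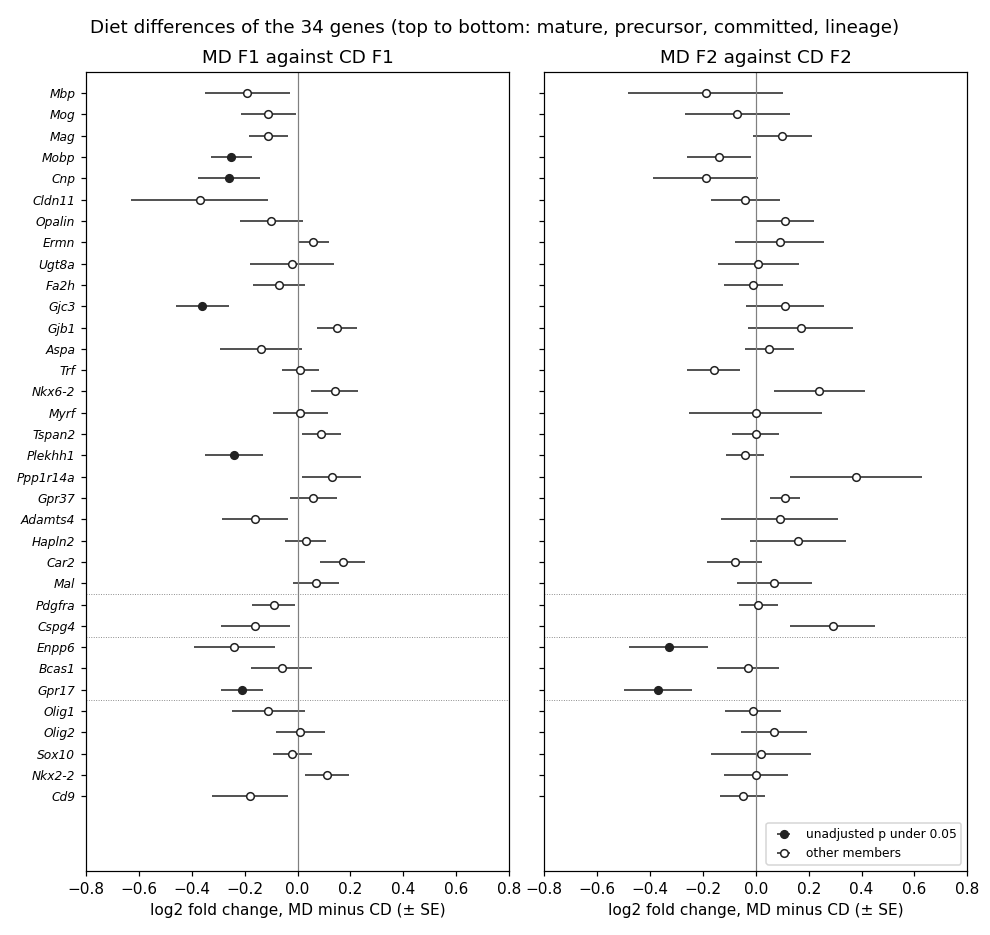
Log2 fold change of each of the 34 genes, MD minus CD, with its standard error from limma, in F1 (left) and F2 (right), 6 arrays per group. Values are quantile-normalized. Filled points have an unadjusted p under 0.05: 5 genes in F1 and 2 in F2, each of them below 0, and 0 genes in either panel passed an FDR of 0.1.

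The precursor genes come first. Pdgfra, the receptor that drives precursor division, measured 10.64 at the lowest, 10.76 at the median and 10.85 at the highest of the CD F1 arrays, and 10.43, 10.69 and 10.89 in MD F1. The CD F2 values were 10.71, 10.86 and 11.00, and in MD F2 10.75, 10.84 and 10.99. The MD values spanned the CD values in F1 and lay within them in F2. Its log2 fold change in limma was −0.09 in F1 (SE 0.0808, FDR 0.598) and 0.01 in F2 (SE 0.0738, FDR 0.999).

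Cspg4, the proteoglycan known as NG2 and carried by precursors and pericytes, measured 10.29, 10.36 and 10.45 (lowest, median, highest) in CD F1 and 9.57, 10.28 and 10.48 in MD F1. On the CD F2 arrays the values were 10.22, 10.84 and 11.05, and in MD F2 10.77, 11.03 and 11.30. MD F1 replicate 6 was the array at 9.57, with the other 5 at 10.25 or above, and the low CD F2 arrays were replicates 3 and 5, at 10.33 and 10.22. The groups overlapped in both generations.

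Its log2 fold change was −0.16 in F1 (SE 0.13, limma FDR 0.584) and 0.29 in F2 (SE 0.162, limma FDR 0.912). The difference between the generations was −0.46 (SE 0.217, unadjusted p 0.0477, limma FDR 0.598). In limma its unadjusted p was 0.0651 with the slide as a block (FDR 0.593), 0.0570 with the sex measure as a term (FDR 0.554) and, for Cspg4 without MD F1 replicate 6, 0.0949 (FDR 0.783). With MD F1 replicate 6 left out, the F1 value was −0.03, and with the sex measure as a term it was 0.07, so its sign in F1 depended on that term. Within slides the difference was −0.42, 0.02 and −0.07 in F1 (slides 4, 5 and 6) and 0.56, 0.11 and 0.18 in F2 (slides 1, 2 and 3).

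The genes of committed and newly formed cells were lower by sign in MD for 3 of 3 in both generations, where Bcas1 lay within 0.06 of 0. Gpr17, a receptor that premyelinating cells carry for a short time and lose as they mature, was the gene at an unadjusted p under 0.05 in both. It measured 14.10, 14.37 and 14.41 in CD F1 and 13.97, 14.07 and 14.37 in MD F1. For CD F2 the values were 14.43, 14.61 and 14.74, and in MD F2 13.71, 14.23 and 14.53.

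The groups overlapped in both generations. In F1 the overlap came from CD F1 replicate 2, at 14.10, and MD F1 replicate 6, at 14.37, while the other MD F1 arrays lay between 13.97 and 14.15. In F2, 4 of the 6 MD arrays lay below the lowest CD array, with replicate 6 the lowest.

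The F1 log2 fold change of Gpr17 was −0.21 (SE 0.0809, unadjusted p 0.0218, limma FDR 0.291; two-sided exact permutation p 0.0325). The F2 value was −0.37 (SE 0.127, unadjusted p 0.0133, limma FDR 0.890; two-sided exact permutation p 0.0108). The difference between them was 0.19 (SE 0.156, limma FDR 0.797). The F2 value was −0.27 without MD F2 replicate 6, its lowest array. Without the arrays that stood apart the values of Gpr17 were −0.27 in F1 and −0.43 in F2, and with the sex measure as a term −0.31 and −0.43. Within slides the difference was −0.05, −0.31 and −0.28 in F1 and −0.48, −0.27 and −0.37 in F2, negative on 6 of 6 slides.

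Enpp6, a choline-specific phosphodiesterase of newly formed oligodendrocytes, measured 8.26, 8.53 and 8.96 in CD F1 and 7.97, 8.42 and 8.69 in MD F1. In CD F2 it measured 8.78, 9.03 and 9.21, and in MD F2 8.03, 8.79 and 8.87. The F2 groups overlapped between 8.78 and 8.87, and MD F2 replicate 6 lay far below the rest of its group.

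Its log2 fold change was −0.24 in F1 (SE 0.154, limma FDR 0.489; −0.16 without MD F1 replicate 6) and −0.33 in F2 (SE 0.148, unadjusted p 0.0455, limma FDR 0.890; two-sided exact permutation p 0.0303). A second, dimmer probe of Enpp6 gave 0.02 in F1 and 0.12 in F2, so the direction differed between its 2 probes. Without the 2 F2 arrays that stood apart the value was −0.31, with an unadjusted p of 0.0987 in limma (FDR 0.839). Leaving out MD F2 replicate 6 moved Enpp6 further, to −0.20 (unadjusted p 0.0589, limma FDR 0.9996). Within slides the F2 difference was −0.41, −0.22 and −0.36.

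Bcas1, which marks oligodendrocytes that are forming myelin, had a log2 fold change of −0.06 in F1 and −0.03 in F2. Without the arrays that stood apart these were 0.00 and 0.01. The mean log2 signal of the 3 genes differed within slides by −0.18, −0.17 and −0.16 in F1 and by −0.39, −0.23 and −0.11 in F2. The 3 genes came from the same pools and are not independent measurements of the diet.

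**Figure D2:**
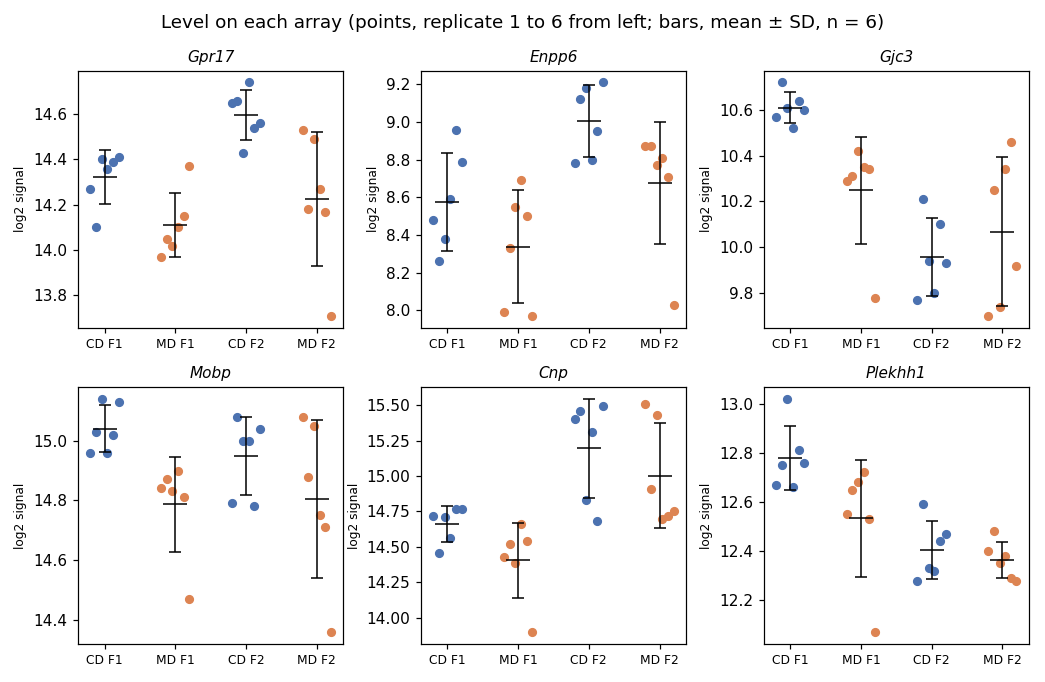
Log2 signal on each array for Gpr17, Enpp6, Gjc3, Mobp, Cnp and Plekhh1, with bars at the mean ± SD of 6 arrays. Gjc3 and Mobp did not overlap between CD F1 and MD F1, and the lowest MD F1 point in the panels of Gjc3, Mobp, Cnp and Plekhh1 is replicate 6.

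Of the mature genes, 13 of 24 were lower and 11 higher in MD F1, with a median log2 fold change of −0.05. That median was −0.00 without MD F1 replicate 6 and 0.03 with the sex measure as a term, where 14 were higher and 10 lower. In MD F2, 10 were lower and 14 higher, with a median of 0.03, which was −0.00 without the 2 arrays that stood apart and −0.01 with the sex measure as a term. The 4 mature genes at an unadjusted p under 0.05 in F1, Gjc3, Mobp, Cnp and Plekhh1, were lower, and none of the 24 reached that p in F2.

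Gjc3, which codes for a connexin of myelinating glia, measured 10.52, 10.60 and 10.72 in CD F1 and 9.78, 10.32 and 10.42 in MD F1. The CD F2 values were 9.77, 9.94 and 10.21, and in MD F2 9.70, 10.09 and 10.46. All 6 MD F1 arrays lay below all 6 CD F1 arrays, with replicate 6 the lowest by a wide gap, while the F2 groups overlapped. Mobp was also separated in F1, so that MD lay wholly below CD for 2 of the 34 genes and wholly above it for 0, against 0.829% and 1.01% of 17379 genes. In F2 both counts were 0, against 0.185% and 0.256% of 16769 genes.

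The F1 log2 fold change of Gjc3 was −0.36 (SE 0.0995, unadjusted p 0.00332, limma FDR 0.208). The two-sided exact permutation p was 0.00216, the smallest that the 924 splits of 12 arrays can give. In F2 the value was 0.11 (SE 0.147, limma FDR 0.960), and the difference between the generations was −0.47 (SE 0.18, unadjusted p 0.0165, limma FDR 0.494). Without MD F1 replicate 6 the F1 value was −0.27 (SE 0.0496, limma FDR 0.0956), called in a fit where calls over all probes rose from 13 to 152, and with the sex measure as a term it was −0.22 (limma FDR 0.476). Within slides the difference was −0.58, −0.28 and −0.23 in F1 and −0.13, 0.17 and 0.28 in F2.

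Gjb1, the other connexin among the genes and a partner in the junctions between myelin layers and with astrocytes, was higher in both generations by sign, except in F1 without scaling between arrays, where it was −0.07. Its log2 fold change was 0.15 in F1 (SE 0.0754, limma FDR 0.369) and 0.17 in F2 (SE 0.198, limma FDR 0.951). The F2 value of Gjb1 was 0.08 with the sex measure as a term and 0.06 without MD F2 replicate 1.

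Mobp, a basic protein of compact myelin, measured 14.96, 15.03 and 15.14 in CD F1 and 14.47, 14.84 and 14.90 in MD F1. On the CD F2 arrays the values were 14.78, 15.00 and 15.08, and in MD F2 14.36, 14.82 and 15.08. All MD F1 arrays lay below all CD F1 arrays, by a gap of 0.06 between the nearest ones, and the F2 groups overlapped.

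Its F1 log2 fold change was −0.25 (SE 0.0773, unadjusted p 0.00647, limma FDR 0.221; two-sided exact permutation p 0.00216). Its other 2 probes gave −0.17 and −0.10 in F1, at unadjusted p of 0.351 and 0.226 in limma. With MD F1 replicate 6 left out, the value was −0.19 (SE 0.0506, limma FDR 0.160), and with the sex measure as a term −0.17 (unadjusted p 0.0585, limma FDR 0.524). Within slides it was −0.37, −0.30 and −0.09. The F2 value was −0.14 (SE 0.121, limma FDR 0.936), and the difference between the generations −0.09 (limma FDR 0.925).

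Cnp, the cyclic nucleotide phosphodiesterase of the cytoplasmic channels of myelin, measured 14.46, 14.71 and 14.77 in CD F1 and 13.90, 14.48 and 14.66 in MD F1. For CD F2 the values were 14.68, 15.35 and 15.49, and in MD F2 14.70, 14.83 and 15.51. In F2 the arrays of both diets fell into a low and a high set, with CD F2 replicates 3 and 5 and MD F2 replicates 2, 4, 5 and 6 below 15.00.

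The F1 log2 fold change of Cnp was −0.26 (SE 0.116, unadjusted p 0.0469, limma FDR 0.341; two-sided exact permutation p 0.0303). Without MD F1 replicate 6, at 13.90, it was −0.16 (unadjusted p 0.0586, limma FDR 0.366), and with the sex measure as a term −0.13 (unadjusted p 0.325, limma FDR 0.749). Within slides it was −0.47, −0.21 and −0.10. In F2 it was −0.19 (SE 0.197, limma FDR 0.940).

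Plekhh1, a pleckstrin homology domain protein enriched in oligodendrocytes, measured 12.66, 12.75 and 13.02 in CD F1 and 12.07, 12.60 and 12.72 in MD F1. In CD F2 it measured 12.28, 12.38 and 12.59, and in MD F2 12.28, 12.36 and 12.48. The F1 groups overlapped between 12.66 and 12.72, and the MD F2 values lay within the range of CD F2.

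The F1 log2 fold change of Plekhh1 was −0.24 (SE 0.11, unadjusted p 0.0477, limma FDR 0.342; two-sided exact permutation p 0.0173). Without MD F1 replicate 6 it was −0.15 (unadjusted p 0.0621, limma FDR 0.374), and with the slide as a block the unadjusted p was 0.0573 in limma (FDR 0.364). The fold change with the sex measure as a term was −0.13 (unadjusted p 0.299, limma FDR 0.736). Within slides the difference was −0.40, −0.30 and −0.03. The F2 value was −0.04 (SE 0.0709, limma FDR 0.972).

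Mbp, which joins the cytoplasmic faces of the myelin membrane, measured 12.83, 12.95 and 13.77 in CD F1 and 12.54, 12.90 and 13.20 in MD F1. The CD F2 values were 12.53, 13.50 and 13.95, and in MD F2 12.58, 12.86 and 13.70. CD F1 replicate 6 was the high array at 13.77, and in F2 the arrays of both diets spread over more than 1 log2 unit. The log2 fold change was −0.19 in F1 (SE 0.161, limma FDR 0.600) and −0.19 in F2 (SE 0.292, limma FDR 0.969). Without CD F1 replicate 6 the F1 value was −0.05, and without MD F1 replicate 6 it was −0.11. The F2 value was −0.35 with the sex measure as a term, and lay between −0.34 and −0.06 on leaving out 1 F2 array. Another probe of Mbp, for a different transcript record, gave −0.21 in F2 (unadjusted p 0.0125, limma FDR 0.890) and −0.02 in F1.

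Mog, a glycoprotein of the outer surface of the sheath, measured 11.26, 11.49 and 11.82 in CD F1 and 11.14, 11.39 and 11.60 in MD F1. On the CD F2 arrays the values were 11.47, 12.08 and 12.44, and in MD F2 11.54, 11.81 and 12.39. The groups overlapped over most of their range in both generations. The log2 fold change was −0.11 in F1 (SE 0.105, limma FDR 0.639) and −0.07 in F2 (SE 0.2, limma FDR 0.993). The F1 value was −0.06 without MD F1 replicate 6, and the F2 value −0.17 with the sex measure as a term. Leaving out 1 F2 array gave F2 values of Mog between −0.18 and 0.01, with the same sign in 10 of 12 fits.

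The other structural genes had smaller or less certain differences. Cldn11, which seals the tight junctions of the sheath, had the F1 log2 fold change farthest from 0 of the 34, −0.37, with an SE of 0.259. MD F1 replicate 6 measured 13.31 and the other 5 arrays of its group 14.81 to 15.03, and without it the value was −0.10. With the sex measure as a term it was 0.07, so its sign depended on that term. Mag, an adhesion protein of the membrane that faces the axon, had −0.11 in F1 and 0.10 in F2.

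Opalin, a glycoprotein of central myelin, had −0.10 in F1, −0.04 there without MD F1 replicate 6, and 0.11 in F2. Ermn, which acts on the cytoskeleton of myelinating cells, had 0.06 and 0.09. Mal, a proteolipid of membrane sorting, had 0.07 and 0.07, with the F2 value at −0.00 without the arrays that stood apart. Tspan2, a tetraspanin of myelin, had 0.09 in F1 and 0.00 in F2, while its second probe gave −0.62 in F1 (unadjusted p 0.0444, limma FDR 0.338), so its direction differed between probes.

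Among genes for enzymes and transport, Ugt8a makes the galactolipids of myelin and Fa2h hydroxylates their fatty acids. Ugt8a had a log2 fold change of −0.02 in F1 and 0.01 in F2, and Fa2h −0.07 and −0.01. Their F1 values were 0.09 and −0.01 without MD F1 replicate 6, and with the sex measure as a term 0.13 and 0.02, so the sign of both depended on the fit. Aspa, which splits N-acetylaspartate into acetate and aspartate, had −0.14 and 0.05, with the F1 value at 0.02 without MD F1 replicate 6 and 0.14 with the sex measure as a term. Car2, a carbonic anhydrase, had 0.17 in F1 (SE 0.0857, limma FDR 0.369; two-sided exact permutation p 0.0498) and −0.08 in F2. Its F1 value lay between −0.04 and 0.21 over 12 alternative settings, with the same sign in 11. Trf, the iron carrier transferrin, had 0.01 and −0.16.

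Of the remaining mature genes, Ppp1r14a, an inhibitor of myosin phosphatase, was higher by sign in both generations, at 0.13 in F1 (−0.11 without scaling between arrays) and 0.38 in F2. Without the arrays that stood apart these values were 0.22 and 0.47, each at an unadjusted p under 0.05 in limma (FDR 0.261 and 0.824). Nkx6-2, a homeobox factor of myelinating cells, had 0.14 and 0.24, with the F1 value between −0.15 and 0.14 over 12 alternative settings. Gpr37, a receptor that restrains the timing of myelination, had 0.06 in F1 and 0.11 in F2 (limma FDR 0.912; two-sided exact permutation p 0.0195). Hapln2, a link protein of the matrix at nodes of Ranvier, had 0.03 and 0.16, and Adamts4, a metalloprotease, −0.16 and 0.09. The F2 values of these last 2 were 0.05 and −0.01 with the sex measure as a term.

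The lineage factors differed little. Myrf, the factor that switches on myelin genes in postmitotic cells, had a log2 fold change of 0.01 in F1 and −0.00 in F2 (−0.15 with the sex measure as a term). Its probe was dim, with a mean log2 signal of 4.50 in CD F1 and MD F1 and 5.91 in CD F2 and MD F2. The F1 value of Myrf lay between −0.41 and 0.01 over 12 alternative settings, and a difference can be missed at so low a signal. Olig2, required to specify the lineage, measured 10.61, 10.86 and 10.97 in CD F1 and 10.51, 10.89 and 11.01 in MD F1. For CD F2 the values were 10.89, 11.21 and 11.54, and in MD F2 10.96, 11.29 and 11.45. Its groups overlapped over nearly all of their range, with log2 fold changes of 0.01 in F1 (SE 0.0924, limma FDR 0.983) and 0.07 in F2 (SE 0.125, limma FDR 0.974).

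Sox10, which works with Olig2 and Myrf at myelin genes, measured 11.57, 11.71 and 11.86 in CD F1 and 11.58, 11.70 and 11.82 in MD F1. In CD F2 it measured 11.77, 12.53 and 12.64, and in MD F2 12.10, 12.20 and 12.73. CD F2 replicates 3 and 5 were the low arrays of F2. The log2 fold change was −0.02 in F1 (SE 0.0741, limma FDR 0.904) and 0.02 in F2 (SE 0.19, limma FDR 0.998), and its sign in each generation depended on the further terms and arrays in the fit.

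Olig1, the related factor that acts in maturation, had −0.11 in F1, −0.01 there without MD F1 replicate 6, and −0.01 in F2. Nkx2-2, a homeobox factor of differentiating precursors, had 0.11 and −0.00, with the F1 value between −0.21 and 0.16 over 12 alternative settings. Cd9, a tetraspanin of several stages and of other cells, had −0.18 and −0.05, with the F1 value at −0.05 without MD F1 replicate 6 and 0.07 with the sex measure as a term.

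Other genes of the lineage, outside the 34, were followed by the same test, with 0 called by limma at an FDR under 0.1 in each list below and in each generation. Of 42 further genes of oligodendrocytes and myelin, 41 were on the arrays and above background. In F1, 27 were higher and 14 lower (median 0.05), with 2 higher and 1 lower at an unadjusted p under 0.05: the protease Klk6 (0.33) and the channel Tmem63a (0.23) were higher, and the axonal adhesion gene Cntn2 (−0.35) was lower. In F2, 19 were higher and 22 lower (median −0.02), with Cmtm5 (0.20) and the carnosine synthase Carns1 (0.17) higher and the adhesion gene Mcam (−0.30) lower at that p. Without the 2 F2 arrays that stood apart 22 were higher and 19 lower (median 0.01), with 2 higher and 0 lower at that p.

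Of 14 further precursor genes, 4 were higher and 10 lower in F1 (median −0.05), with the matrix gene Matn4 (0.36) higher at an unadjusted p under 0.05. In F2, 8 were higher and 6 lower (median 0.05), with the transcription factor Sox6 (−0.27) lower. Without the 2 F2 arrays that stood apart 7 were higher and 7 lower (median −0.01), with 0 at that p. Of 22 genes for growth factors, receptors and inhibitors of differentiation, 21 could be compared in F1, since Erbb4, a neuregulin receptor, was not well above background on any MD F1 array. It was so on 3 of 6 CD F1 arrays, with a mean log2 signal of 3.31 in CD F1 and 2.13 in MD F1. Its fitted log2 fold change was −1.18 (unadjusted p 0.000128, limma FDR 0.128). Since its MD F1 signal was not above background, neither that size nor that p can be read as exact. Its filter thus follows its own difference. Of the others 11 were higher and 10 lower (median 0.02; 0.08 with the sex measure as a term).

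At an unadjusted p under 0.05 in F1, the growth factor receptor Fgfr2 (0.26) and the inhibitor Id4 (0.26) were higher, and the inhibitor Id2 (−0.25) and the Wnt effector Tcf7l2 (−0.26) were lower. In F2, 10 of 22 were higher and 12 lower (median −0.02), with Bmp4 (−0.34), a signal that newly committed cells make and that holds back differentiation, lower. Tcf7l2 also belongs to the thalamus list given later.

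Myelin membrane takes up much of the cholesterol that the brain makes. Of 22 genes of cholesterol synthesis and uptake, 7 were higher and 15 lower in F1 (median −0.09), with the sterol enzymes Msmo1 (−0.17) and Dhcr7 (−0.17) lower at an unadjusted p under 0.05. In F2, 5 were higher and 17 lower (median −0.09), with 0 at that p. Of the 6 Schwann cell genes above background, 4 were higher in F1 (median 0.02, −0.01 without MD F1 replicate 6) and 2 in F2 (median −0.07), with the transcription factor Egr2 (−0.65), which neurons also express, lower at that p in F2.

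Genes of other cells and of neighbouring tissue were followed in the same way, and limma called 0 of them at an FDR under 0.1 in F1 and in F2. Of 10 astrocyte genes 0 were higher and 10 lower in F1 (median −0.10), with the glutamate transporter Slc1a2 (−0.62), the connexin Gjb6 (−0.25) and the filament gene Gfap (−0.35) at an unadjusted p under 0.05. The mean of the astrocyte genes lay between 13.02 and 13.16 in CD F1 and between 12.69 and 13.01 in MD F1, where MD F1 replicate 6 was the lowest array. Without that array 8 of 10 were lower, with a median of −0.11.

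Of 10 neuron genes 8 were lower in F1 (median −0.09), with Syt1 (−0.42) and Nefl (−0.19) at an unadjusted p under 0.05, and of 10 genes of hippocampal fields 8 were lower (median −0.10), with Wfs1 (−0.25) at that p. The field median was −0.04, with 7 lower, without MD F1 replicate 6. Of 10 thalamus genes 7 were lower (median −0.18), with Rora (−0.32) and Tcf7l2 lower and Rgs16 (0.44) higher. All 10 choroid plexus genes were higher (median 0.42), with 0 at that p. Without MD F1 replicate 6 their median was 0.63, with 1 at that p, and with the sex measure as a term 1.32, with 3. The microglia list had a median of −0.00 with Csf1r (−0.17) lower, the endothelium and mural cell list −0.01, and the striatum list −0.05 with Drd1 (−0.36) lower. When MD F1 replicate 6 was left out the endothelium and mural cell median was −0.09, with 7 of 10 lower and 1 of them at that p, and the striatum median −0.01. They were −0.14 and 0.04 with the sex measure as a term. Their part in the differences of the 34 genes was not tested.

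In F2 all 10 choroid plexus genes were lower (median −2.26), with 0 at an unadjusted p under 0.05. When the 2 F2 arrays that stood apart were left out the median was −2.98, with 8 lower at that p and 0 called by limma at an FDR under 0.1. It was −2.14 with the sex measure as a term, with 0 at that p. The mean of the list lay between 7.56 and 12.31 in CD F2 and between 7.42 and 11.66 in MD F2, so the choroid plexus signal differed more between arrays of one group than any of the 34 genes did. The other F2 medians were −0.01 for astrocytes, 0.01 for microglia, −0.10 for endothelium and mural cells, −0.03 for neurons, −0.00 for hippocampal fields, 0.02 for thalamus and 0.09 for striatum. Without the arrays that stood apart the last 2 were −0.03 and 0.16.

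At an unadjusted p under 0.05 in F2, Csf1r (−0.16), Rgs5 (−0.21), Rora (−0.21) and Ppp1r1b (−0.49) were lower, and Camk2a (0.27), Plekhg1 (0.43), Drd1 (0.31) and Penk (0.18) were higher. The part of these genes in the F2 values of the 34 was not tested.

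How the genes varied together was described over the 12 arrays of a generation after removing the group means, so that diet plays no part in it. The points share slides and scan days, and no p is given. Over all pairs of the 34 genes the mean Pearson r was 0.33 in F1 and 0.28 in F2, against 0.01 over all pairs of 16050 genes and 0.00 over all pairs of 13837 genes. Among the 276 pairs of mature genes the mean was 0.32 in F1 and 0.28 in F2, and 217 and 208 pairs were above 0.

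Without the arrays that stood apart the mean over all pairs of the 34 was 0.28 in F1 and 0.29 in F2. With the sex measure removed as well as the group means it was 0.36 in F1 and 0.19 in F2. In F2 the mean over mature pairs then went from 0.28 to 0.18, with 180 of 276 pairs above 0.

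Some arrays had most of the genes on one side of their group mean, and their part in the correlations was not tested beyond the settings above. In F1, 7 of the 34 genes were above their group mean on MD F1 replicate 6 and 4 on CD F1 replicate 2, against 29 on CD F1 replicate 6. In F2, 8 were above it on CD F2 replicate 3, 12 on CD F2 replicate 5 and 4 on MD F2 replicate 6, the 3 arrays with a sex measure below 0. On CD F2 replicate 2 and MD F2 replicate 3, 29 genes were above it. The mean of the mature genes deviated from its group mean by −0.27 on MD F1 replicate 6, and by −0.14, −0.19 and −0.26 on the 3 F2 arrays in the order given.

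**Figure D3:**
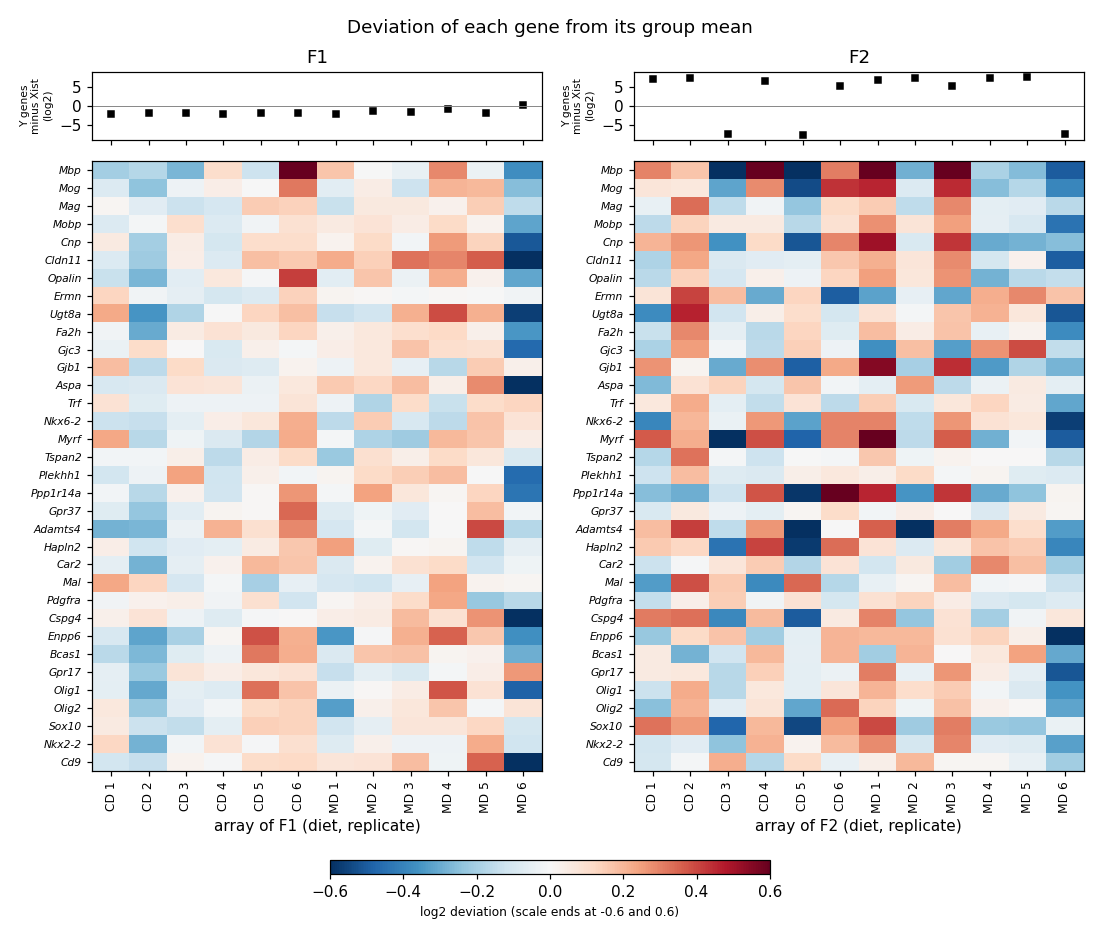
Deviation of each gene (log2, colour) from the mean of its group on every array of F1 (left) and F2 (right), with the sex measure of each array (Y-linked genes minus Xist, log2) above. Most genes are below their group mean on MD F1 replicate 6 and on MD F2 replicate 6.

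Each gene was then set against the mean of the mature genes, leaving itself out. Mbp and Mog followed it in both generations, with r of 0.70 and 0.87 in F1 and 0.78 and 0.84 in F2. The r between Mbp and Mog was 0.79 in F1 and 0.94 in F2. Some mature genes did not follow it in F1, in F2 or in both. Mal had an r of −0.12 in F1 and −0.03 in F2, and Ermn had 0.37 and −0.51. Trf had −0.17 and 0.46, Gjb1 0.05 and 0.73, and Aspa 0.75 and −0.30, among others. Ermn lay between 18.21 and 18.25 on the MD F1 arrays, a narrow range that leaves little variation to follow.

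The 5 genes expressed through several stages had a median r with the mature mean of 0.70 in F1 and 0.77 in F2, against 0.65 and 0.68 for the 24 mature genes, but did not follow it alike. Olig1 had 0.86 and 0.88, Sox10 0.70 and 0.74, and Nkx2-2 0.65 and 0.77. Olig2 had 0.30 in F1 and 0.88 in F2, and Cd9 0.84 and −0.08. Among the mature genes Myrf had 0.28 and 0.79. Without MD F1 replicate 6 the F1 values of Olig2, Cd9 and Myrf were 0.69, 0.55 and 0.57. The low F1 values of Olig2 and Myrf thus depended on that array. Olig1 and Olig2 correlated with each other at 0.43 in F1 (0.75 without MD F1 replicate 6) and 0.76 in F2. Over all genes the median r with the mature mean was −0.11 in F1 and −0.06 in F2.

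The genes named for diet differences varied in their own ways. Gjc3 had an r of 0.62 with the mature mean in F1, −0.32 without MD F1 replicate 6, and −0.28 in F2. Plekhh1 went in the same way from 0.61 to −0.03 in F1. Mobp and Cnp correlated with each other at 0.85 in F1 (0.41 without MD F1 replicate 6) and 0.66 in F2. Gpr17 had −0.14 in F1, 0.80 without MD F1 replicate 6, and 0.81 in F2.

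Precursor and mature genes were compared through their means. In F1 the r between the mean of the mature genes and the mean of Pdgfra and Cspg4 was 0.65 (Spearman rho 0.28, n = 12 arrays), and −0.01 without the 2 arrays farthest from the median, MD F1 replicate 6 and CD F1 replicate 6. Without MD F1 replicate 6 alone it was −0.29, so the F1 relation rested on that array. In F2 it was 0.70 (rho 0.66), and 0.79 without MD F2 replicate 6 and CD F2 replicate 2. With the sex measure removed the F2 value was 0.54, and 0.19 without the 2 arrays then farthest. Without the F2 arrays that stood apart it was 0.74, and 0.39 without the 2 farthest of the rest. The F2 relation thus also depended on the arrays and terms used. The 2 precursor genes correlated with each other at 0.31 in F1, −0.43 without MD F1 replicate 6, and −0.40 in F2, so their mean combines genes that varied in different ways.

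For the 3 committed genes the r with the mature mean was 0.69 in F1 (rho 0.75) and 0.65 in F2 (rho 0.50). Without the 2 farthest arrays it was 0.79 and 0.71. With the sex measure removed it was 0.81 in F1 and 0.29 in F2, and without the 2 arrays then farthest 0.86 and 0.02. The F2 relation of the committed genes thus depended on the arrays and terms used.

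Outside the 34, the 8 genes whose lower r of the 2 generations with the mature mean was highest, over 13684 genes, were Schip1, Hip1r, Kctd6, Slc6a9, Septin4, Rhog, Gal3st1 and Carhsp1. Schip1 had an r of 0.89 in F1 and 0.92 in F2, and Carhsp1 had 0.80 and 0.80. Rhog and Gal3st1, the latter the sulfotransferase that makes sulfatide, belong to the list of further myelin genes. The other 6 are in none of the lists. With MD F1 replicate 6 left out, the F1 values of the 8 lay between 0.36 and 0.75.

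The further myelin genes had a median r with the mature mean of 0.30 in F1 and 0.56 in F2, and the cholesterol genes 0.05 and 0.56. The further precursor genes had −0.10 and 0.30, and the growth factor list 0.20 and 0.12. Astrocyte genes had 0.10 and −0.04, neuron genes 0.19 and −0.12, microglia genes −0.19 and 0.08, and endothelium and mural cell genes −0.17 and −0.22. Hippocampal field genes had 0.36 and −0.16, thalamus genes −0.12 and 0.17, choroid plexus genes 0.21 and −0.13, striatum genes −0.19 and −0.22, and Schwann cell genes −0.16 and −0.11. The Schwann cell values rest on 6 genes in F1 and 3 in F2, and the choroid plexus values on 10 and 8.

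Since these genes varied together, their promoters were read from the RefSeq table of 300 bases per start, 250 before it and 50 after it. Of the 34 genes, 24 had a promoter in the table, 30 promoters in all of 32851. Mbp, Fa2h, Trf, Olig1, Sox10, Bcas1, Gpr17, Myrf, Adamts4 and Car2 had none in it.

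Motifs of 3 factor families of the lineage were searched on both strands: ACAAAG or ACAATG, the core that SOX proteins bind, CAGCTG, an E-box of the kind OLIG proteins bind, and CTGGNAC, the core for Myrf. The SOX core was in 12 of 30 promoters (40%), against 28.6% of all promoters. The Myrf core was in 12 of 30 (40%), against 19.3%, and the E-box in 4 of 30 (13.3%), against 16.3%. Any of the 3 was in 19 of 30 (63.3%), against 51.6%. Promoters of one gene can overlap, as those of Mag do, and a match describes letters only.

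The promoters below belong to the 4 mature genes and the committed gene at an unadjusted p under 0.05 in F1 or F2 that have one in the table. Mog was added as a myelin gene that followed the mature mean. They are written 5′ to 3′ along the strand of the gene, from RefSeq on build GRCm38.p6, with motif matches in capitals, and 0 matches overlap. Mobp (chr9:120149492-120149791, plus strand) holds 6 SOX cores, all read on the opposite strand as CTTTGT. Cnp (chr11:100574689-100574988, plus strand) holds 1 SOX core and 2 Myrf cores, and Plekhh1 (chr12:79028913-79029212, plus strand) holds 1 Myrf core. Mog (chr17:37023349-37023648, minus strand) holds 1 Myrf core and Enpp6 (chr8:46986637-46986936, plus strand) 1 SOX core. Gjc3 (chr5:137963049-137963348, minus strand) holds 0 of the 3 motifs. The promoter of Cspg4, a gene at that p for the difference between the generations, also holds 0 of them and is not printed.
Mobp: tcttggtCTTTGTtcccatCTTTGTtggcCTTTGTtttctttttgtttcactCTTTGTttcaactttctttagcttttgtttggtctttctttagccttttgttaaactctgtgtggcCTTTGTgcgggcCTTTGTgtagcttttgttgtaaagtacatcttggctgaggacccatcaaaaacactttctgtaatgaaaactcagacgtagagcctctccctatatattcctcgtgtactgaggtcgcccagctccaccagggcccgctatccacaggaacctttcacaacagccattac
Cnp: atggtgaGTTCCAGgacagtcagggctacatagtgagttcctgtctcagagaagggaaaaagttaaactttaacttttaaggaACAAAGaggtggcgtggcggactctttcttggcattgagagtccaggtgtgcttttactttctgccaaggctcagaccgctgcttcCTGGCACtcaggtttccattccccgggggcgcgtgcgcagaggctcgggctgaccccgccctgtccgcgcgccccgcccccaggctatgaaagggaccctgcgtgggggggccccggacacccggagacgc
Plekhh1: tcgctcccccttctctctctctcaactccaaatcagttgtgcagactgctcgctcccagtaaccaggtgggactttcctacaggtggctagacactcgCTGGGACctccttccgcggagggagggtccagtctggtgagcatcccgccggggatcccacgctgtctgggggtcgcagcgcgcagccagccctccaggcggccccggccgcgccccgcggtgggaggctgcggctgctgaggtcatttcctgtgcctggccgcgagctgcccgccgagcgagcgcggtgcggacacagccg
Mog: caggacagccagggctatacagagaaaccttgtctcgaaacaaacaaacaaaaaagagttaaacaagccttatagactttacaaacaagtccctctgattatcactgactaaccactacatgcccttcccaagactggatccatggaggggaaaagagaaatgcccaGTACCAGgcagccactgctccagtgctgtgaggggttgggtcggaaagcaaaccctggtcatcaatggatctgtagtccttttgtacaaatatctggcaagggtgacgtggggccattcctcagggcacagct
Enpp6: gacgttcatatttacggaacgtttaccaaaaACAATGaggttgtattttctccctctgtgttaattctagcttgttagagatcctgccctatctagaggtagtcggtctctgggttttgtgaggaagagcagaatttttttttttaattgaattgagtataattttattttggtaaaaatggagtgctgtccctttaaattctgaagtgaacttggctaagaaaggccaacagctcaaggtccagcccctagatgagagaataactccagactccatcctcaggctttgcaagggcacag
Gjc3: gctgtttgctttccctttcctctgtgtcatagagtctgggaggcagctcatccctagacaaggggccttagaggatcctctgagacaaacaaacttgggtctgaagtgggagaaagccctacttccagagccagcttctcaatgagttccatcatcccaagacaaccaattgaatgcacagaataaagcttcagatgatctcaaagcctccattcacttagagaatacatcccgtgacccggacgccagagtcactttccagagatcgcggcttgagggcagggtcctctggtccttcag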

How the data were processed

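Hippocampal RNA of 24 pools was measured on single-color arrays, 6 per group. The deposited files hold, per the file headers, linear intensity values made by the authors with Agilent Feature Extraction 10.7.3.1, background-subtracted and detrended within the array, and a value table that the authors had quantile-normalized within each generation (sorted values differed by at most 0.037 log2 in F1 and 0.034 in F2), which served as an alternative. Spots marked as irregular (1939 in F1, 2097 in F2) were left out, log2 values of the remaining spots were averaged by probe, and quantile normalization was run within a generation, or over all 24 arrays when the diet effects of F1 and F2 were set against each other. Group means were fitted over all probes with limma 3.58.1 in R 4.3.3, with Benjamini-Hochberg adjustment over all probes and an FDR threshold of 0.1. Probes with values on fewer than 2 arrays of a group were not fitted. Identifiers on the arrays gave a symbol to 26055 probes, 19751 symbols in all. The steps were tested on simulated data.

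Full values were given for the genes at an unadjusted p under 0.05 in F1, in F2 or in their difference, and for Mbp, Mog, Pdgfra, Cspg4, Olig2 and Sox10 whatever their p. Of each other list, up to 3 genes with the smallest p under 0.05 in each generation were named, and Erbb4, Id2, the second probes and the remarks on single members beyond this rule, such as Bcas1, Cldn11 and Ppp1r14a, were chosen after their values were seen. The 8 genes most like the mature mean were ranked by the lower of the r of the generations. The genes and lists were chosen with earlier results of these data known.

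Alternatives covered other scalings and background correction, dim probes, irregular spots, the mean of the probes of a gene, slide, replicate number, sex measure and the code of the F2 labels as further terms, another variance prior, 1 fit of both generations, the authors' table, and leaving out arrays.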

Additional observations from a re-analysis of the deposited data

Results flagged for a closer look

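In 10 of 68 groups of 6 arrays, over 17 measures, the highest or lowest array lay far from the others. The measure is the gap to the nearest other array divided by the whole range of the group, and values above Dixon's critical value for 6 were listed. Chance alone lists about 1 in 20 groups, and the measures share arrays. No explanation was weighed.

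MD F1 replicate 6 accounts for 7 of the 10. It was the lowest array of its group for Mobp, with a ratio of 0.78 (14.47, the others 14.81 to 14.90). For Cnp the ratio was 0.65 (13.90, the others 14.39 to 14.66), and for Gjc3 it was 0.80 (9.78, the others 10.29 to 10.42). For Plekhh1 it was 0.71 (12.07, the others 12.53 to 12.72), and for Cspg4 0.75 (9.57, the others 10.25 to 10.48). The mean of the mature genes gave 0.69 on this array (12.48, the others 12.74 to 12.86), and the mean of the precursor genes gave 0.76 (10.03, the others 10.46 to 10.60).

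MD F2 replicate 6 was the lowest array of its group for Enpp6, with a ratio of 0.81 (8.03, the others 8.71 to 8.87), and for the mean of the committed genes, with a ratio of 0.92 (11.77, the others 12.32 to 12.37). MD F1 replicate 1 was the lowest of its group for Olig2, with a ratio of 0.64 (10.51, the others 10.83 to 11.01).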

How the results depend on the processing

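Called genes, counts at an unadjusted p under 0.05 and medians are of the 34 genes, from limma. Without scaling between arrays the F1 comparison called 6 genes, had 12 at an unadjusted p under 0.05 and a median of −0.31, while 20.2% of all 39429 probes were called there, and the median of all genes was −0.25 there and 0.02 with quantile normalization. That setting also gave 0 genes at that p in F2 and 1 in the difference between the generations. Scaling to the 75th percentile gave 4 genes in F1, 2 lower (Mobp, Gjc3) and 2 higher (Gjb1, Car2), where quantile normalization gave 5 lower and 0 higher. In F2 it gave 2 lower and 1 higher, Gpr37. Another background correction (normexp, on the median signal, since the mean signal is not in the columns used) gave 5 lower and 2 higher in F1. A variance prior that was both robust and with a trend gave 5 lower and 2 higher as well.

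With the sex measure as a term 3 genes were at that p in F1, and the F1 median went from −0.08 to 0.01. The fit of both generations together gave 3 in F1. The mean of the probes of a gene gave 1 in F2. The slide as a block gave 4 in F1, where Plekhh1 had an unadjusted p of 0.0573, and 1 in the difference between the generations, as did leaving out both F2 arrays that stood apart. The cause of these shifts was not tested.

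The replicate block, which takes the replicate number of the labels as a term, gave 3 genes at that p in F1, 1 in F2 and 1 in the difference. The numbers do not pair the arrays: deviations of same-numbered arrays of CD and MD correlated between −0.05 and 0.20 in F1, above 0.1 for 1 of 6 pairs, and between −0.17 and 0.19 in F2, above 0.1 for 3 of 6. An array correlated best with its own number for 0 of 6 in F1 and 2 of 6 in F2.

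Leaving out each array in turn gave 0 to 1 called genes in F1, 2 to 6 at that p and a median between −0.12 and −0.01. The called gene was Gjc3, without MD F1 replicate 6 (FDR 0.0956, against 0.0679 to 0.476 over its other settings), where 0.386% of all probes were called against 0.033% in the main fit, and the count of 2 came without MD F1 replicate 1. In F2 the range was 1 to 2 genes at that p, with 1 on leaving out an array among CD F2 replicates 2, 3 and 5 and MD F2 replicates 3 and 5. For the difference it was 1 to 3, with 3 on leaving out CD F2 replicate 2 or MD F2 replicate 4 and 1 on leaving out an array among CD F1 replicates 1, 2, 3, 4 and 6, MD F1 replicates 1, 2 and 6, CD F2 replicates 3 and 6 and MD F2 replicates 1, 3 and 6.

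Gjc3 kept an unadjusted p under 0.05 in F1 in 12 of 12 alternatives and 12 of 12 fits without 1 array, Mobp in 10 and 12, Gpr17 in 10 and 11, Cnp in 8 and 5, and Plekhh1 in 8 and 5. In F2 Gpr17 kept it in 13 of 14 alternatives and 12 of 12 fits without 1 array, and Enpp6 in 10 and 5, with −0.10 for the mean of its probes. For the difference between the generations Gjc3 kept it in 12 of 13 and 24 of 24, and Cspg4 in 9 of 13 and 8 of 24. The sign of each was the same in all of these. Removing the sex measure from the covariation was chosen after seeing the data. All 34 genes were above background on every array, so signal over background did not limit which genes could be compared, though Myrf was dim.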
